A study of Mus musculus with 6 samples.

Results

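The SIBLING phosphoproteins (small integrin-binding ligand, N-linked glycoproteins) are 5 acidic, secreted proteins of the mineralised matrix, and their genes Dspp, Dmp1, Ibsp, Mepe and Spp1 were taken as the members. Every probe set to which the platform annotation gave the symbol of a member was used. This found 7 probe sets for 4 of the 5 genes, out of 18193 genes named on the array: 1 for Dspp, 3 for Dmp1, 2 for Ibsp and 1 for Mepe. No probe set was named Spp1 (osteopontin) in the annotation used, and its expression was not analysed here. Signal was measured on 6 arrays, with 2 arrays each for mandible, calvaria and ulna of adult male mice weighing 24 to 26 g, which the methods call skeletally mature Black CD57 mice. The mandible was taken with its teeth, the calvaria without its sutures, and the ulna, as labelled, without its soft tissue and epiphyses. No treatment or genetic change separates the groups, which are whole bone organs and not purified bone cells. The study set skull bone against limb bone. The methods describe male mice divided into groups for a pilot of arrays on bone, but the number of mice behind each array, and any pooling of RNA, is not given in the sources used here, so the spread between arrays that enters the p-values may be technical.

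The SIBLING genes lie next to each other on mouse chromosome 5, in the order Dspp, Dmp1, Ibsp, Mepe and Spp1, and each encodes a protein with an Arg-Gly-Asp motif that binds integrins. After phosphorylation in the secretory pathway and cleavage by proteases, these proteins bind calcium and collagen and promote or restrain the growth of hydroxyapatite. Dspp is the main non-collagenous protein gene of dentine, Dmp1 and Mepe are expressed by osteocytes, and Ibsp (bone sialoprotein) is made by osteoblasts as they begin to mineralise matrix.

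Dmp1, Ibsp and Mepe had higher signal in both skull sites than in ulna, so their promoters are shown, as RefSeq gives them for the build GRCm38.p6. Each runs from 250 bases before to 50 bases after a transcription start on the plus strand. RefSeq gave a promoter for 4 of the 5 members, with 6 starts in all, and Dmp1 has 2 of them. Capitals mark a CCAAT box (CCAAT, or ATTGG on the other strand) and the core motif of RUNX factors (TGTGGT, or ACCACA on the other strand). The windows lie at chr5:104197325-104197624 and chr5:104202367-104202666 for Dmp1, chr5:104299037-104299336 for Ibsp and chr5:104325079-104325378 for Mepe.
Dmp1, first start: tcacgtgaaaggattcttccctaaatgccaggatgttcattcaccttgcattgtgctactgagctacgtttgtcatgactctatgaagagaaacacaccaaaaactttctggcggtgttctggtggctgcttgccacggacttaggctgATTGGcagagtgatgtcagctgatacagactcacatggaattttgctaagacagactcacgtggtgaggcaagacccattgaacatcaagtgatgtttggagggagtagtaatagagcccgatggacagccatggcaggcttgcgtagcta
Dmp1, second start: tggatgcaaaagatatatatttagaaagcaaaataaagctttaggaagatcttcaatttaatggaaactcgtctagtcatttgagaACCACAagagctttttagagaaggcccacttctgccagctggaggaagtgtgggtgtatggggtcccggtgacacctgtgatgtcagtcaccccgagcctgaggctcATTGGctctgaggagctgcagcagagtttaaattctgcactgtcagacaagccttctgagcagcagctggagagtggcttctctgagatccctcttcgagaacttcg
Ibsp: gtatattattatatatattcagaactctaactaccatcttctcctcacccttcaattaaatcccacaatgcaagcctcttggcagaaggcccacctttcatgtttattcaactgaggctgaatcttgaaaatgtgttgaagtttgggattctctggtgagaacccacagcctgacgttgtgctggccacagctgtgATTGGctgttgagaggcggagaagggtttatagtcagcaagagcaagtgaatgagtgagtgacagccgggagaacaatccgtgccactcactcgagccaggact
Mepe: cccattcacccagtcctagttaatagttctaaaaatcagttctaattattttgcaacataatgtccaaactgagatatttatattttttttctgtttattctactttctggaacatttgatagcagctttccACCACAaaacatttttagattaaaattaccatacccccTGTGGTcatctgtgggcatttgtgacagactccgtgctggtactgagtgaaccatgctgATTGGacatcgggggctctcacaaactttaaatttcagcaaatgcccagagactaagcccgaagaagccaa
Each of the 4 windows held a CCAAT box on the other strand. With the start counted as 1, it began at position -54 in Ibsp, -21 in Mepe, -101 at the first start of Dmp1 and -57 at the second start. A CCAAT box was found in 37.4% of 32851 mouse promoters of the same 300 bases. The RUNX letters were found at the second start of Dmp1 (position -164) and in Mepe (positions -118 and -80), and in neither of the other windows. They were present in 16.8% of all promoters. These matches describe letters and not sites in use.

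The 2 arrays of a site resembled each other more than arrays of different sites did. Over all tested probe sets, Pearson's r was 0.952 to 0.956 within a site and 0.797 to 0.862 between sites, as a description across probe sets. The sites also differed in the tissues they held. The summed signal of 8 skeletal muscle markers was 44659 to 44810 in mandible, 6011 to 6161 in calvaria and 47958 to 48173 in ulna. Muscle RNA was thus abundant on the ulna arrays, against the label of bone cleared of soft tissue. The 7 enamel markers, such as Amelx and Ambn, summed to 55835 to 57224 in mandible, 54.5 to 76.0 in calvaria and 75.3 to 88.0 in ulna. The 8 osteoblast markers tested summed to 31292 to 32709 in mandible, 32540 to 37071 in calvaria and 5966 to 6293 in ulna. All 8 osteoblast markers were called higher in mandible than in ulna, where 9.36% of all tested probe sets were. All 8 were also called higher in calvaria than in ulna, where 6.9% of all were. Markers of bone-forming cells were thus present at all sites, and the part of these differences in tissue in the results on SIBLING genes was not tested. In RNA from whole bone, fewer cells of a type and less RNA per cell cannot be told apart.

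Signals are the deposited MAS5 values, averaged over 2 arrays with their SD, and carry no unit. Differences are on the log2 scale after each array was divided by its median, and were tested with limma over 25233 probe sets with Benjamini-Hochberg adjustment. The word called is kept for differences of 2-fold or more with an adjusted p below 0.05. All 7 probe sets of the members passed the filter, which asked that 2 or more of the 6 arrays exceed their median signal. Dspp passed through its mandible arrays alone, so a difference was built into its test. A gene with several probe sets is represented by the one of highest mean signal. Levels of different probe sets were not compared with each other, since each binds its target differently.

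Dspp encodes dentine sialophosphoprotein, the precursor of dentine sialoprotein and dentine phosphoprotein, made by odontoblasts. Its signal was 8582 and 8383 in mandible, 0.828 and 1.77 in calvaria and 2.85 and 1.80 in ulna. The bone with teeth thus had a high signal on both arrays, and every array of the other sites lay far below its array median, which was 30.6 to 33.6 over the 6 arrays. The log2 difference was 11.75 between mandible and ulna (adjusted p = 3.37e-08, limma) and 12.73 between mandible and calvaria (adjusted p = 3.05e-08, limma). Because the lower signals are under the array median, these sizes are uncertain. With every value below the array median set to that median, mandible was at least 254-fold higher than ulna and at least 254-fold higher than calvaria. Dspp ranked first of all tested probe sets by difference in both comparisons without this floor and at position 6 with it. Between calvaria and ulna, Dspp differed by -0.98 on the log2 scale (95% interval -2.08 to 0.11, adjusted p = 0.166, limma), with both sites below the array median, and was not called. Without calvaria replicate 2 the difference was -1.53 (adjusted p = 0.0202, limma) and was called.

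**Figure D1:**
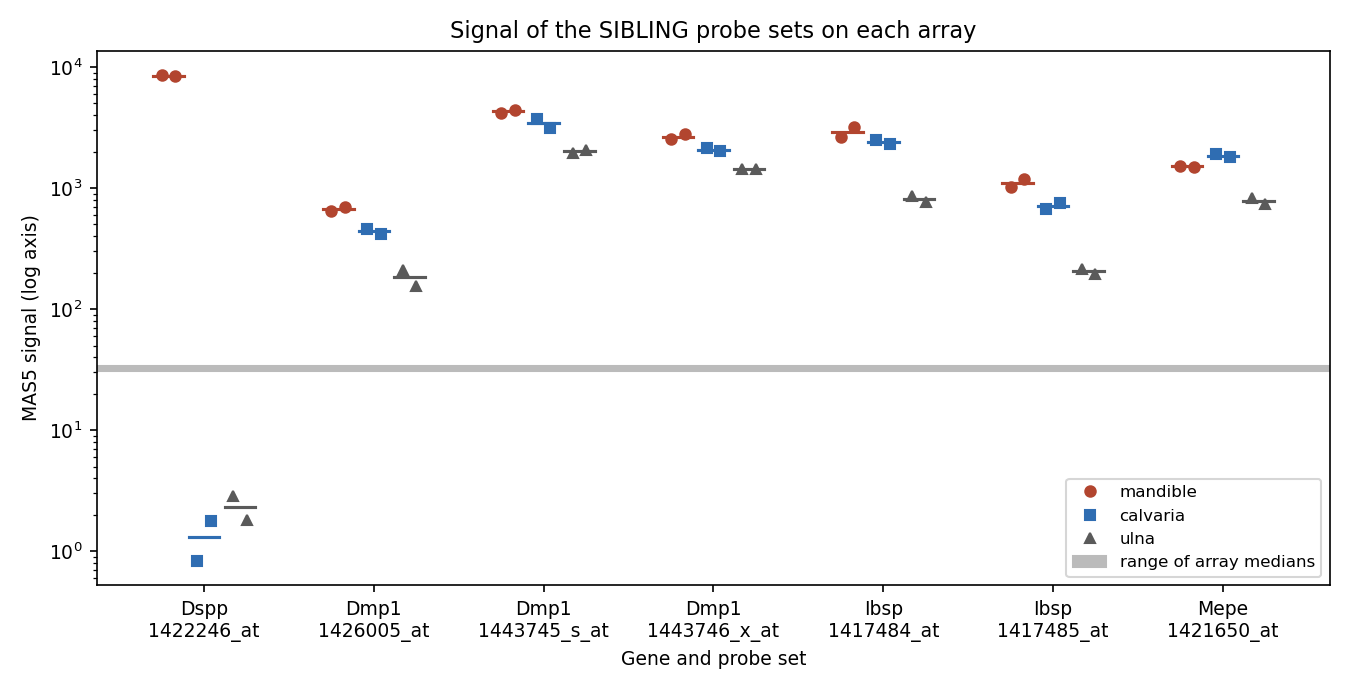
Signal of each SIBLING probe set on the 6 arrays, on a log axis, with 2 arrays each for mandible, calvaria and ulna in that order from left to right; points are arrays and horizontal bars are site means. Dspp stood at 8582 and 8383 in mandible and below 3 on the 4 other arrays, while the probe sets of Dmp1, Ibsp and Mepe were lowest in ulna.

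Ibsp, which nucleates hydroxyapatite in newly laid osteoid, had the largest difference between calvaria and ulna among the 4 genes. With the probe set 1417484_at its signal was 2619 and 3195 in mandible, 2486 and 2291 in calvaria and 862.1 and 765.7 in ulna. Both skull sites stood above ulna without overlap. The mean was 2907 ± 407 in mandible, 2389 ± 138 in calvaria and 813.9 ± 68.1 in ulna (SD, 2 arrays per site). Calvaria exceeded ulna by 1.48 on the log2 scale, or 2.79-fold (95% interval of the log2 difference 1.26 to 1.70, adjusted p = 1.18e-06, limma). Mandible exceeded ulna by 1.71, or 3.28-fold (adjusted p = 2.85e-07, limma). Ibsp was called in both comparisons.

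The other Ibsp probe set, 1417485_at, gave larger differences in the same order of sites. Its signal was 1019 and 1181 in mandible, 675.7 and 753.3 in calvaria and 213.6 and 196.0 in ulna. No array of one site overlapped with an array of another. The log2 difference was 1.73 between calvaria and ulna (adjusted p = 5.43e-07, limma) and 2.31 between mandible and ulna (adjusted p = 5.71e-08, limma). Mandible and calvaria differed by adjusted p with only one of the probe sets of Ibsp. The log2 difference was 0.24 (95% interval 0.0164 to 0.457, adjusted p = 0.120, limma) with 1417484_at and 0.58 (adjusted p = 0.00252, limma) with 1417485_at, both under 2-fold. Mandible was higher than calvaria on each array with either probe set.

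Dmp1, dentine matrix protein 1, is a regulator of mineralisation and of phosphate balance that osteocytes and odontoblasts make. Its 3 probe sets put the sites in the order mandible, calvaria, ulna, with no overlap of arrays. The probe set 1443745_s_at gave 4156 and 4436 in mandible, 3721 and 3162 in calvaria and 1965 and 2057 in ulna. The mean was 4296 ± 198 in mandible, 3441 ± 395 in calvaria and 2011 ± 64.9 in ulna (SD, 2 arrays per site). Skull and limb thus differed, but by less than the 2-fold limit. The log2 difference was 0.69 between calvaria and ulna (adjusted p = 9.11e-05, limma) and 0.98 between mandible and ulna, or 1.97-fold (adjusted p = 3.96e-06, limma). With values as deposited, not divided by the array median, that between mandible and ulna was 1.10, past 2-fold.

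The probe set 1426005_at, which carries neither the suffix for shared transcripts (_s_at) nor the one for possible cross-hybridisation (_x_at), gave the largest differences of Dmp1. Its signal was 644.5 and 700.0 in mandible, 462.4 and 421.1 in calvaria and 211.8 and 155.7 in ulna. Calvaria was 2.30-fold higher than ulna (log2 1.20, SE 0.138, adjusted p = 7.44e-05, limma), and mandible was 3.41-fold higher than ulna (log2 1.77, adjusted p = 2.36e-06, limma). Both were called. With 1443746_x_at the signal was 2537 and 2780 in mandible, 2134 and 2009 in calvaria and 1437 and 1443 in ulna. Its log2 difference was 0.45 between calvaria and ulna (adjusted p = 0.000806, limma) and 0.77 between mandible and ulna, both under 2-fold. The call for Dmp1 therefore depended on the probe set, and its direction did not. For mandible against calvaria, the log2 difference was 0.28 (adjusted p = 0.0302, limma) with 1443745_s_at, 0.57 (adjusted p = 0.0133, limma) with 1426005_at and 0.32 (adjusted p = 0.00892, limma) with 1443746_x_at. All 3 were under 2-fold.

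Mepe, matrix extracellular phosphoglycoprotein, is an osteocyte product whose acidic peptide, released by cleavage, restrains mineralisation. It was the only one of the 4 measured genes with its highest signal in calvaria. The probe set 1421650_at gave 1532 and 1500 in mandible, 1903 and 1798 in calvaria and 832.4 and 742.1 in ulna, with no overlap between sites. The mean was 1516 ± 22.4 in mandible, 1850 ± 74.2 in calvaria and 787.2 ± 63.8 in ulna (SD, 2 arrays per site). Calvaria exceeded ulna by 1.16 on the log2 scale, or 2.23-fold (95% interval 0.991 to 1.33, adjusted p = 9.25e-07, limma), and was called. Mandible exceeded ulna by 0.83, or 1.78-fold (95% interval 0.663 to 0.998, adjusted p = 7.84e-06, limma), which is under 2-fold. Mandible was below calvaria by -0.33 on the log2 scale (95% interval -0.496 to -0.161, adjusted p = 0.0100, limma), a small difference with no overlap of arrays, which passed the adjusted p in 14 of 18 alternative settings. Among these, the call rule without a fold limit and the choice of probe set could not change the adjusted p of Mepe, which has 1 probe set.

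The calls of the members can be read against those of all tested probe sets. Between calvaria and ulna, 2 of the 4 genes were called higher (Ibsp and Mepe), where 6.9% of all tested probe sets were, and 3 passed the adjusted p alone in that direction, where 13% did. None of the 4 was called lower, where 4.95% of all were, or passed the adjusted p alone in that direction, where 16.6% did. Between mandible and ulna, 2 genes were called higher (Ibsp, and Dspp, whose call was built in by the filter), where 9.36% of all were, and all 4 passed the adjusted p alone, where 16.8% did. None was called lower, where 11.3% of all were, or lower by adjusted p alone, where 26.6% were. Between mandible and calvaria, Dspp, again by way of the filter, was called higher, where 4.09% of all were, and none was called lower, where 3.48% were. By adjusted p alone, Dspp and Dmp1 were higher there, where 8.38% of all were, and Mepe was lower, where 13.5% were. A gap between the arrays of the sites is common in these data. Of the 7 probe sets, 6 had both calvaria arrays above both ulna arrays, as 27.5% of all tested probe sets did, and all 7 had both mandible arrays above both ulna arrays, as 28.6% did. In 6 of the 7 both mandible arrays lay above both calvaria arrays, as in 24.6% of all. In the other direction, Dspp was lower on both calvaria arrays than on both ulna arrays, as 38% of all probe sets were, and Mepe lower on both mandible arrays than on both calvaria arrays, as 36.7% were. None of the 7 was lower on both mandible arrays than on both ulna arrays, where 43.2% were. With 4 genes, these shares describe the members only. The 3 comparisons share arrays and are not independent of each other.

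**Figure D2:**
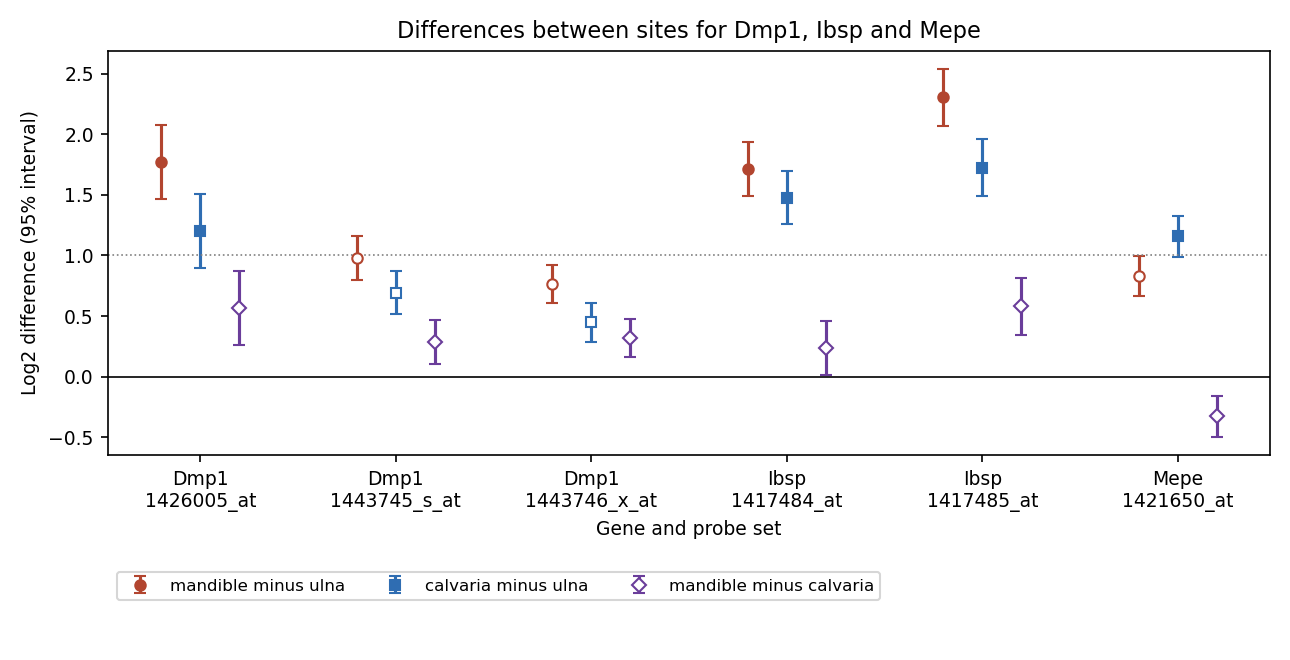
Log2 difference of each probe set of Dmp1, Ibsp and Mepe in the 3 comparisons between sites, with 95% confidence intervals from limma. A dotted line marks 2-fold higher, filled symbols were called and open symbols were not, and Dspp is not shown. Both Ibsp probe sets (1.48 and 1.73), Mepe (1.16) and 1426005_at of Dmp1 (1.20) lay past 2-fold between calvaria and ulna. Mepe was below 0 between mandible and calvaria, at -0.33.

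Order among the members was compared within arrays, where the scaling cancels. The log2 ratio of Mepe to Ibsp was -0.77 and -1.09 in mandible, -0.39 and -0.35 in calvaria and -0.05 and -0.04 in ulna. Only its difference between sites is compared, since its level depends on the probe sets. The ratio was lowest in mandible and highest in ulna without overlap. It differed by -0.32 between calvaria and ulna, by -0.89 between mandible and ulna and by -0.57 between mandible and calvaria. The log2 ratio of Mepe to Dmp1 was -1.44 and -1.57 in mandible, -0.97 and -0.81 in calvaria and -1.24 and -1.47 in ulna. Mandible was below calvaria by -0.61, while mandible and ulna overlapped. With 1426005_at for Dmp1, the ratio was instead lower in mandible than in ulna by -0.94 without overlap, and calvaria and ulna overlapped. With every pairing of their probe sets, the ratios of Mepe to Ibsp and of Mepe to Dmp1 were lower in mandible than in calvaria on both arrays.

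The members were also set against 8 osteoblast markers. The markers' own log2 differences ran from 1.54 to 3.25 between calvaria and ulna (median 2.58) and from 1.31 to 3.08 between mandible and ulna (median 2.48). In both comparisons some markers thus differed by less than a probe set of Ibsp did. For Dmp1 this held only between mandible and ulna, with 1426005_at (1.77). The median log2 level of the 8 markers on an array was 1.92 higher in calvaria than in ulna and 2.18 higher in mandible than in ulna. It was 0.26 higher in mandible than in calvaria, although the markers' own differences there had a median of -0.20, since a median of levels depends on which marker lies in the middle. Set against this median on the same array, Dmp1 was 2.75 and 3.0 in mandible, 3.0 and 2.70 in calvaria and 4.06 and 4.09 in ulna. Relative to osteoblast markers, Dmp1 was thus lower by -1.20 in mandible and by -1.22 in calvaria than in ulna. These values are from its probe set of highest mean signal, with which the skull sites overlapped. With 1426005_at Dmp1 was lower by -0.41 in mandible and by -0.71 in calvaria, and mandible lay above calvaria by 0.30 without overlap. With 1443746_x_at it was lower by -1.41 in mandible and by -1.47 in calvaria, and the skull sites overlapped. Mepe stood at 1.31 and 1.43 in mandible, 2.04 and 1.88 in calvaria and 2.82 and 2.62 in ulna, and did not overlap between any pair of sites. Ibsp stood at 2.08 and 2.52 in mandible, 2.42 and 2.23 in calvaria and 2.87 and 2.66 in ulna, lower by -0.47 in mandible and by -0.44 in calvaria than in ulna. The other Ibsp probe set was lower by -0.19 in calvaria than in ulna on this scale, and mandible and ulna overlapped. These relative values are a description without a test, and their size depends on the markers chosen. With Col1a1 (type I collagen) alone in place of the list, the difference between calvaria and ulna was -2.35 for Dmp1, -1.56 for Ibsp and -1.88 for Mepe. Against the median of the markers' own differences, a choice made after seeing the data, it was -1.88 for Dmp1, -1.10 for Ibsp and -1.42 for Mepe. That median was taken without the floor, which gave a smaller one, so these gaps would be smaller with it. Against the same median without the floor, mandible minus calvaria was 0.49 for Dmp1, 0.44 for Ibsp and -0.12 for Mepe. The relative order of the skull sites is thus not settled for Ibsp, whose sign depended on the reference. Nor is it for Dmp1, whose skull sites overlapped when set against the 8 markers. Mepe was lower in mandible than in calvaria with every reference, but by sizes from -0.59 to -0.12 that were not tested.

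**Figure D3:**
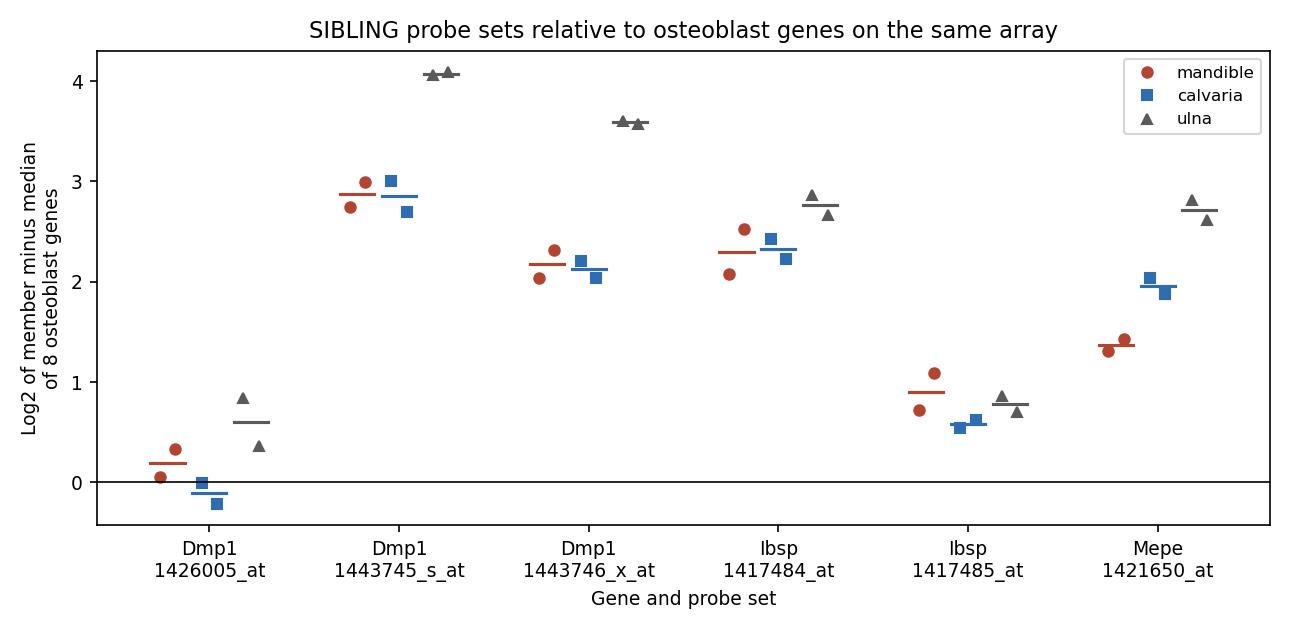
Log2 level of Dmp1, Ibsp and Mepe probe sets minus the median log2 level of 8 osteoblast markers on the same array, for mandible, calvaria and ulna from left to right; points are arrays. With 1443745_s_at Dmp1 stood at 4.06 and 4.09 in ulna and between 2.70 and 3.0 in the skull sites, and Mepe was lowest in mandible, at 1.31 and 1.43.

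SIBLING proteins are phosphorylated by the Golgi kinase Fam20c and cut by proteases such as Bmp1, and their peptides are degraded by Phex. Of 14 such genes listed, 12 were tested. Between calvaria and ulna 7 were called higher and 1 lower (median log2 difference 1.45, against -0.08 for all tested probe sets), and between mandible and ulna 9 were called higher and 0 lower (median 1.97, against -0.13 for all). Between mandible and calvaria 4 were called higher and 2 lower (median 0.04, against -0.09 for all). Mmp20, which passed the filter on mandible arrays alone, is among those called higher in both comparisons of mandible. Either direction was called for 11.9% of all tested probe sets between calvaria and ulna, 20.7% between mandible and ulna and 7.57% between mandible and calvaria. Bmp1, which cleaves Dmp1 and Dspp, had signal 237.3 ± 7.36 in mandible, 268.0 ± 7.57 in calvaria and 48.0 ± 0.848 in ulna (SD, 2 arrays per site), a log2 difference of 2.40 between calvaria and ulna (adjusted p = 3.88e-07, limma). Pcolce, an enhancer of Bmp1 on procollagen, and Mmp2, a gelatinase, were higher in calvaria than in ulna by 2.63 and 2.65. Alpl, the phosphatase that removes the mineralisation inhibitor pyrophosphate, had signal 933.6 ± 30.9 in mandible, 318.6 ± 11.5 in calvaria and 104.0 ± 2.42 in ulna (SD, 2 arrays per site). It was called in all 3 comparisons, at 1.54 between calvaria and ulna, 3.05 between mandible and ulna and 1.51 between mandible and calvaria.

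Phex was called in all 3 comparisons. Its signal was 2376 and 2179 in mandible, 683.2 and 621.9 in calvaria and 240.6 and 242.1 in ulna, with no overlap. The log2 difference was 1.36 between calvaria and ulna (adjusted p = 7.09e-07, limma), 3.12 between mandible and ulna (adjusted p = 1.65e-09, limma) and 1.76 between mandible and calvaria (adjusted p = 1.73e-07, limma). Between mandible and calvaria Phex was thus higher while Mepe, whose peptide Phex binds, was lower. Fam20c, named here after its values were seen, had signal 238.3 ± 25.0 in mandible, 263.5 ± 23.9 in calvaria and 79.7 ± 9.0 in ulna (SD, 2 arrays per site). It was higher than in ulna by 1.65 in calvaria and by 1.46 in mandible, and differed by -0.19 between mandible and calvaria (adjusted p = 0.429, limma). The enamel protease Mmp20 was higher by 7.80 in mandible than in ulna. Its filter was passed on mandible arrays alone, so a difference was built into the test, and with a floor at the array median it was 5.26. Mmp20 was the 1 gene of the list called lower in calvaria than in ulna, with signals of 1.37 and 6.22 that both lay below the array median. Acp5, the acid phosphatase of osteoclasts that removes phosphate from osteopontin, had signal 1955 ± 233 in mandible, 3869 ± 228 in calvaria and 741.5 ± 170 in ulna (SD, 2 arrays per site). Summed over 10 osteoclast markers, signal was 6676 to 6901 in mandible, 12254 to 12635 in calvaria and 3399 to 3954 in ulna. The markers did not all follow this sum between mandible and ulna (median log2 difference 0.56, and -0.01 with a floor at the array median). By the adjusted p of limma alone, 4 were higher in mandible, where 16.8% of all tested probe sets were, and 3 lower, where 26.6% were.

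Integrins of the αv group and Cd44 bind the SIBLING proteins. Of 11 receptor genes tested, 3 were called higher and 1 lower between calvaria and ulna (median 0.30), 3 higher and 2 lower between mandible and ulna (median 0.33), and 1 in each direction between mandible and calvaria (median -0.04). With a floor at the array median, the receptor medians were -0.05, 0.12 and -0.02, in that order. Here and for the lists below, either direction was called for 11.9%, 20.7% and 7.57% of all tested probe sets, in that order. Their medians were -0.08, -0.13 and -0.09. Itgb5, a partner chain of αv, was higher by 1.49 in calvaria and by 1.25 in mandible than in ulna. Itgb3, the chain of the osteoclast integrin that binds osteopontin and bone sialoprotein, which platelets also carry, had signal 215.2 ± 9.99 in mandible, 418.2 ± 0.322 in calvaria and 718.5 ± 34.2 in ulna (SD, 2 arrays per site). It was thus highest in ulna, where Ibsp was lowest, and the log2 difference between mandible and ulna was -1.86 (adjusted p = 1.21e-07, limma). Itgb6, an epithelial integrin chain, had signal 69.3 and 52.5 in mandible, 0.502 and 1.57 in calvaria and 54.5 and 56.2 in ulna. It was called lower in calvaria than in ulna, at -6.04, and higher in mandible than in calvaria, at 6.05. The calvaria signals lay far below the array median, so these sizes are not reliable, and with a floor at that median they were -0.85 and 0.85, under 2-fold. Itgav and Cd44 were named after their values were seen. Itgav differed by 0.91 between calvaria and ulna (adjusted p = 6.37e-06, limma) and by 0.88 between mandible and ulna, both under 2-fold. Cd44 differed by -0.18 between calvaria and ulna and by 0.12 between mandible and ulna, and was not called.

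Among transcription factors that act on SIBLING genes, 7 of the 9 listed were tested. Between calvaria and ulna 5 were called higher and 0 lower (median 1.56), between mandible and ulna 6 higher and 0 lower (median 1.84), and between mandible and calvaria 1 higher and 0 lower (median 0.15). Vdr, the vitamin D receptor, had signal 208.6 ± 12.6 in mandible, 361.4 ± 19.1 in calvaria and 76.6 ± 4.56 in ulna (SD, 2 arrays per site). Like Mepe it was highest in calvaria. Sp7 (osterix), which is needed for osteoblast formation, was higher than in ulna by 1.84 in calvaria and by 1.84 in mandible. The homeobox gene Msx2 was higher by 5.17 in mandible than in ulna, and by 3.61 in mandible than in calvaria (adjusted p = 5.14e-05, limma). Its ulna signals, 11.5 and 8.14, lay below the array median, and with a floor at that median these differences were 3.50 and 3.30. Between calvaria and ulna Msx2, one of the genes called higher, fell from 1.56 to 0.20, under 2-fold. With the floor the list medians were 1.18 between calvaria and ulna, 1.65 between mandible and ulna and 0.15 between mandible and calvaria. Cbfb, the partner subunit of RUNX factors, named after its values were seen, differed by 0.50 between calvaria and ulna and by 0.43 between mandible and ulna, and was not called. Runx2 had no named probe set in the annotation used.

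Dmp1, Mepe and Phex also belong to the system through which bone controls phosphate. Of 7 genes listed for it, 5 were tested. Between calvaria and ulna 2 were called higher and 1 lower (median 0.43), between mandible and ulna 3 higher and 1 lower (median 2.07), and between mandible and calvaria 2 higher and 0 lower (median 0.82). Fgfr1, a receptor of fibroblast growth factors, was higher than in ulna by 1.25 in calvaria and by 2.07 in mandible. The phosphate transporter Slc20a2 had signal 945.9 ± 45.9 in mandible, 255.4 ± 29.6 in calvaria and 181.1 ± 27.7 in ulna (SD, 2 arrays per site). The related transporter Slc20a1 was lower than in ulna by -1.11 in calvaria and by -1.12 in mandible. Fgf23, the phosphate hormone of osteocytes, did not pass the filter on low signal.

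**Figure D4:**
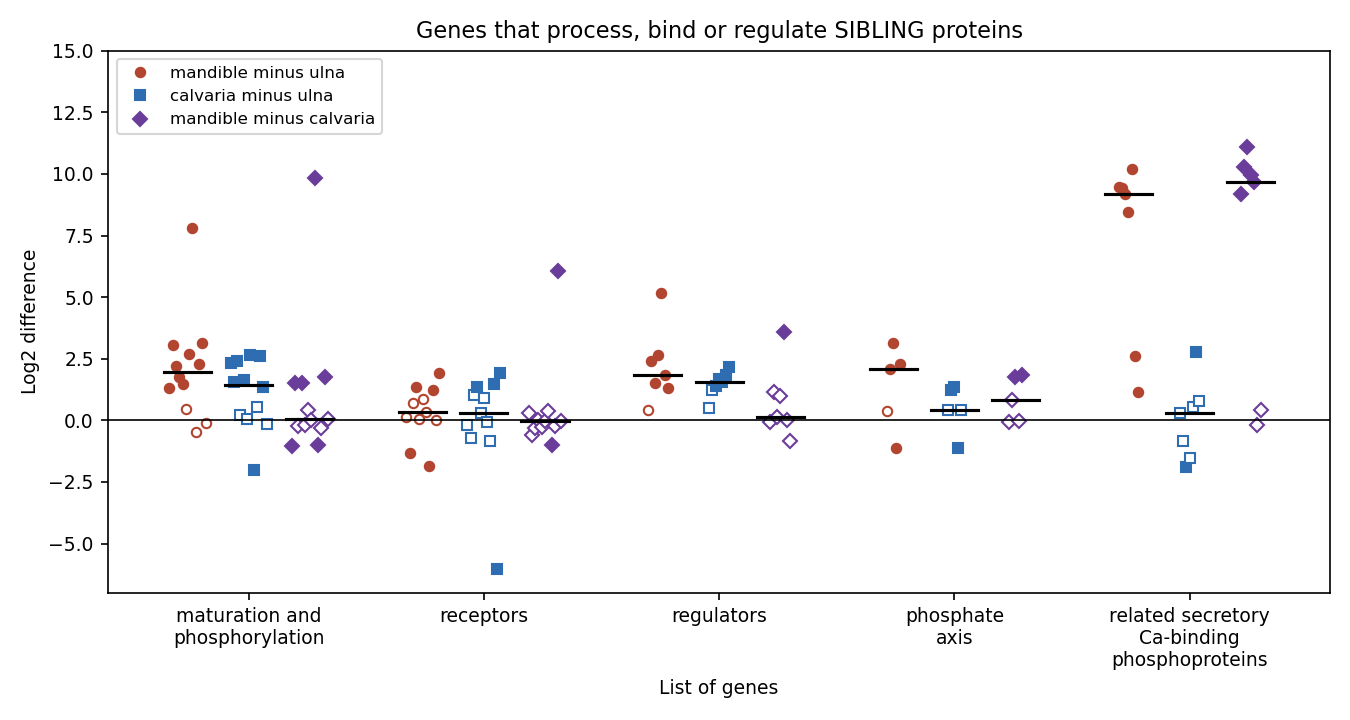
Log2 differences of genes that process, bind or regulate SIBLING proteins, in 5 lists on the horizontal axis, for mandible minus ulna, calvaria minus ulna and mandible minus calvaria; filled symbols were called and open symbols were not, and bars are list medians. The medians of mandible minus ulna were 1.97 for maturation and phosphorylation, 0.33 for receptors, 1.84 for regulators, 2.07 for the phosphate axis and 9.19 for related phosphoproteins. No floor at the array median was applied to the values shown.

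The SIBLING genes are part of a larger family of secretory calcium-binding phosphoproteins, which holds the enamel matrix genes and descends from Sparc-like genes. All 7 listed relatives were called higher in mandible than in ulna (median 9.19). For 5 of them, Enam, Ambn, Amelx, Amtn and Odam, the filter was passed on mandible arrays alone, so a difference was built into the test, as for Dspp. With signals below the array median set to it, the median was 8.42. Between mandible and calvaria 5 were called higher and 0 lower (median 9.67), and between calvaria and ulna 1 was called higher and 1 lower (median 0.31). The enamel matrix gene Ambn had mean signal 14252 ± 873 in mandible, 24.1 ± 1.27 in calvaria and 18.6 ± 3.30 in ulna (SD, 2 arrays per site). Sparc, which encodes osteonectin of bone matrix, had a pattern of another kind, with 13470 ± 470 in mandible, 14866 ± 785 in calvaria and 2054 ± 91.0 in ulna (SD, 2 arrays per site). It was called higher in calvaria than in ulna, at 2.78. Amtn, an ameloblast gene, was called lower in calvaria than in ulna, at -1.89, with both sites below the array median.

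Genes next to the SIBLING cluster on chromosome 5 did not share one pattern. Sparcl1, the neighbour on the Dspp side and itself a relative of Sparc, had signal 644.4 and 626.8 in mandible, 477.0 and 459.2 in calvaria and 261.7 and 258.8 in ulna. Its order of sites was that of Dmp1 and Ibsp, with no overlap. The log2 difference was 0.77 between calvaria and ulna (adjusted p = 9.30e-05, limma), 1.17 between mandible and ulna (adjusted p = 2.31e-06, limma) and 0.40 between mandible and calvaria (adjusted p = 0.00913, limma). Beyond it, Nudt9 differed by -0.22 between calvaria and ulna (adjusted p = 0.220, limma), by 0.02 between mandible and ulna (adjusted p = 0.915, limma) and by 0.24 between mandible and calvaria (adjusted p = 0.209, limma). Gm17660, which lies between Sparcl1 and Nudt9, had no named probe set. On the other side, Pkd2, the gene next to Spp1, had none either. The next genes, Thoc2l and Zfp33b, were not called in any comparison. Signals of Thoc2l, from 11.5 to 39.1, lay around the array median, so its lack of a call says little.

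The genes with the most similar pattern to each member were found as those with the smallest root mean square difference of centred log2 values over the 6 arrays. For Dspp these were the enamel genes Amtn (1.15), Odam (1.33) and Amelx (1.49). Like Dspp, these genes passed the filter on mandible arrays alone, so a likeness was built in. Their distances rest partly on calvaria and ulna signals below the array median and have no reliable size. For Dmp1 the most similar genes were Smim10l1 (0.046), Rusc1 (0.054) and Crispld1 (0.064). For Ibsp they were Gnai1 (0.079), Tspan18 (0.081) and Pls3 (0.103), and for Mepe they were Errfi1 (0.053), Kifap3 (0.054) and Igfbp6 (0.075). No member was among the 3 genes most similar to another. Dmp1 and Mepe differed from each other by 0.275, Dmp1 and Ibsp by 0.371, and Ibsp and Mepe by 0.377. The 6 values of a gene fall at 3 sites with shared arrays, so likeness here rests on the site means.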

How the data were processed

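Signal was measured on 6 arrays, 2 each for mandible, calvaria and ulna. The authors ground bone in liquid nitrogen, labelled RNA by the One-Cycle method and computed MAS5 values (version not given in the sources used here). The deposited intensity is linear, with a 2% trimmed mean of 100 on every array, computed from the values. It holds 45101 probe sets, of which 64 are control probe sets that were left out. The annotation of the array gave 1 symbol to 34945 probe sets, several to 932 and none to 9160. Promoter sequences and the order of genes on the chromosome are from RefSeq tables of GRCm38.p6.

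Signals were divided by the median of their array, and log2 was taken without an offset. The methods name a per chip and a per gene step without saying how they scale, and the per gene step, which leaves ratios as they are, was not applied. The filter, that 2 or more of the 6 arrays exceed their median, kept 25233 probe sets (55.9%). Arrays of a site had a median SD of 0.194 (log2). The number of arrays limits the precision. Site means were estimated by limma 3.58.1 under R 4.3.3, moderating the variances (residual degrees of freedom 3, prior 7.67), and p-values were adjusted over all tested probe sets. The fit was tested on simulated data. Ratios are of geometric means.

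Named are all probe sets of the members, up to 4 called genes with the largest difference in each list of partner genes and markers (or 2 by mean signal where a list had no call), the 3 genes most similar to each member, and the neighbours on the chromosome. Exceptions are stated. The members, lists and tests were chosen with earlier results of these data known. Alternatives covered scaling, filter, offset, moderation, samples in the fit, a block for the replicate number, arrays left out, the call rule, the probe set of a gene and the osteoblast reference. Other lists served as a check of tissue: 8 osteocyte, 8 macrophage, 6 cartilage, 8 epithelium, 7 erythroid, and 7 meningeal and neuronal markers were tested. Figures were made by matplotlib 3.10.9 under Python 3.11.15.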

Additional observations from a re-analysis of the deposited data

How the results depend on the processing

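No difference of a member changed sign under the alternatives run, of which there were 18 for each. The call rule without a fold limit reuses the adjusted p of the main fit, so it passes wherever the main fit does. The choice of probe set likewise cannot alter Dspp and Mepe, with 1 probe set each. By adjusted p, Ibsp and Mepe passed in all 18 between calvaria and ulna and all 4 genes in all 18 between mandible and ulna, while Dmp1 passed in 17 between calvaria and ulna (adjusted p = 0.0582 by limma's model without moderation). Between mandible and calvaria, Dmp1 passed in 10 of 18 (log2 0.17 to 0.57, adjusted p up to 0.245), Mepe in 14 (-0.37 to -0.28, up to 0.146) and Ibsp in 2. Dmp1 reached 2-fold between mandible and ulna with values as deposited (log2 1.10), with quantile normalization or 75th percentile scaling (1.08 in each) and without mandible replicate 1 (1.03) or ulna replicate 2 (1.02). Values as deposited moved the median of all probe sets between mandible and ulna to -0.02, against -0.13. Leaving out 1 array gave 0 to 1 members called lower between calvaria and ulna: Dspp, at -1.53 without calvaria replicate 2. With no fold limit, 4 members passed the adjusted p as higher between mandible and ulna, and 2 higher and 1 lower between mandible and calvaria.

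Calls over all probe sets numbered 2991 between calvaria and ulna, 5224 between mandible and ulna and 1909 between mandible and calvaria. In that order the counts were 1783, 3107 and 1189 with a filter at the 75th percentile, 1544, 2952 and 1083 with an offset of 1 array median, 1566, 3455 and 723 without moderation, and 7475, 10961 and 5532 past the adjusted p with no fold limit. Leaving out each array in turn gave 2479 to 2861, 4733 to 4945 and 1605 to 1759. With a block for the replicate number they were 2929, 5183 and 1848, and the calls of members did not change. Deviations of arrays with the same number correlated by -0.0123 to 0.0058 over pairs of sites. The sources used here do not say whether a number marks the same mice, so arrays were not paired by it.

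Relative to Col1a1 alone in place of the 8 osteoblast markers, the differences of calvaria and ulna, of mandible and ulna, and of mandible and calvaria were -2.35, -1.94 and 0.41 for Dmp1, -1.56, -1.20 and 0.37 for Ibsp, and -1.88, -2.08 and -0.20 for Mepe. With the 8 markers they were -1.22, -1.20 and 0.02, then -0.44, -0.47 and -0.03, then -0.76, -1.35 and -0.59, so only Ibsp between mandible and calvaria, where arrays overlapped, changed sign, with Col1a1 as with the choice that follows. Against the median of the markers' own differences, chosen after seeing the data, they were -1.88, -1.50 and 0.49 for Dmp1, -1.10, -0.76 and 0.44 for Ibsp, and -1.42, -1.65 and -0.12 for Mepe. Values below the array median, such as Dspp outside the mandible, have no reliable size.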

Other observations

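Cell type markers not described above also differed between sites. Of all tested probe sets, 9.36% were called higher and 11.3% lower between mandible and ulna. Between calvaria and ulna these shares were 6.9% and 4.95%, and between mandible and calvaria 4.09% and 3.48%. All 8 epithelial markers were called higher in mandible than in ulna (median log2 difference 4.27), and 7 of 8 higher in mandible than in calvaria (median 5.52). For 4 of them, and for 2 of the cartilage markers below, the filter was passed on mandible arrays alone, so their difference was built into the test. With a floor at the array median, the epithelial medians were 3.33 and 3.82. All 6 cartilage markers tested were called higher in mandible than in ulna (median 3.01), and 2 higher in calvaria than in ulna (median 1.04). With the same floor these cartilage medians were 1.38 and 0.19. Cnmd, called higher in calvaria than in ulna, lay below the array median at both of these sites. All 7 erythroid markers tested were called lower in mandible than in ulna (median -1.54), and 2 lower in calvaria than in ulna (median -0.76). Of 8 osteocyte markers tested, 4 were called higher in mandible than in ulna (median 1.29) and 5 higher in calvaria than in ulna (median 1.19), with 0 called lower in either. By the adjusted p of limma alone, 5 were higher and 1 lower between mandible and ulna, and 6 higher and 2 lower between calvaria and ulna. Of 8 macrophage markers, 0 were called between mandible and ulna and 0 between calvaria and ulna by the adjusted p of limma with the 2-fold limit. By that adjusted p alone 5 were lower between mandible and ulna, and 5 were higher and 1 lower between calvaria and ulna. Of 7 meningeal and neuronal markers, 5 were called higher in calvaria than in ulna (median 2.33). With a floor at the array median this median was 0.84. Igfbp2 and Gap43, both among the 5, had ulna signals below the array median and were at 0.84 and 0.47 with the floor, under 2-fold.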
